A study of Mus musculus with 7 samples.

Results

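The aryl hydrocarbon receptor genes described here are 6 genes that were chosen by name: Ahr, Ahrr, Arnt, Tiparp, Nqo1 and Cyp1b1. Their rows were looked up in 3 tables of single-cell expression, where 5 of the 6 stood among 15155 genes of marrow-derived cells and among 23737 genes of host cells, and all 6 stood among 26383 genes of keratinocytes. Cyp1b1 was listed for keratinocytes only and was not analysed in the other cells. All cells came from the epidermis of irradiated male CD45.2 C57BL/6 mice 3 weeks after transplantation of bone marrow from female CD45.1 C57BL/6 donors (BMT). Donor CD11b+MHCII+ cells made up 3 libraries labelled BMT and 1 labelled as BMT with added T cells (BMT + T cells), the CD45neg keratinocytes of the host made up 1 library under each label, and host CD11b+MHCII+ cells made up 1 library labelled BMT. The labels give T cells to the BMT + T cells libraries alone, whereas the design text gives CD4 T cells and Matahari CD8 cells to the transplanted mice in general, so labels are compared here and not treatments. The study describes independent experiments on pooled mice whose donor cells were combined, but not which library came from which pool. In cluster comparisons, p-values measure how far differences between clusters vary over these libraries, with an estimate of that spread shared by all clusters. Between labels they measure the spread between libraries. Part of either spread may be technical.

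Ahr encodes a ligand-activated transcription factor that is held in the cytosol by chaperones. Once it has bound a ligand, such as a pollutant or a tryptophan derivative, it pairs with the protein of Arnt in the nucleus and binds DNA at a short core motif. Ahrr encodes a repressor that competes for Arnt, Tiparp an enzyme that ADP-ribosylates the receptor and limits it, Cyp1b1 a cytochrome P450 enzyme and Nqo1 a quinone reductase, and all 4 are known targets of the receptor. Langerhans cells (LCs) and keratinocytes are known to express Ahr. In the study Ahr was singled out on these same libraries, so its level in LC-like cells is not independent evidence here.

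In build GRCm38.p6 Ahr lies at chr12:35497979-35534989, Ahrr at chr13:74211118-74292331, Arnt at chr3:95434367-95497240, Tiparp at chr3:65528447-65555518, Nqo1 at chr8:107388225-107403205 and Cyp1b1 at chr17:79706940-79715061. The start of Tiparp overlaps the gene 4931440P22Rik, and reads of these genes may not have been told apart. Promoters of 5 of the 6 members were found in RefSeq sequences of that build, and the 250 bases before the start are shown for 3 targets whose levels are set against that of Ahr, with the receptor's core motif in capitals (GCGTG, or CACGC where it lies on the other strand).
Ahrr, chr13:74292332-74292581, minus strand: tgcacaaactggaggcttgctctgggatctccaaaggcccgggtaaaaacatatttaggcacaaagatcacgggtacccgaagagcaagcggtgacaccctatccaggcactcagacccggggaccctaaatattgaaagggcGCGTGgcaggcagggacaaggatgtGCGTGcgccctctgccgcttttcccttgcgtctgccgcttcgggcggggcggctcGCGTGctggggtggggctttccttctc
Tiparp, chr3:65528197-65528446, plus strand: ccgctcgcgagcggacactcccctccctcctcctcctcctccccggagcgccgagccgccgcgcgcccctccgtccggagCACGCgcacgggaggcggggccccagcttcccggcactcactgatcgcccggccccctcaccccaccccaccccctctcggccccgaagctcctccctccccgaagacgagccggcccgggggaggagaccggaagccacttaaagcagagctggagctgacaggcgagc
Cyp1b1, chr17:79715062-79715311, minus strand: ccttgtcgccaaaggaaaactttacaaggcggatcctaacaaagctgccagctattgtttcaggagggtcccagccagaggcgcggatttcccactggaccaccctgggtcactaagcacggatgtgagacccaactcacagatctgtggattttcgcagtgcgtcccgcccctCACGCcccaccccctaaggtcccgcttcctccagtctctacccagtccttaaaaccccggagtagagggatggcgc
The Ahrr window held 3 copies of the core, and the Tiparp and Cyp1b1 windows held 1 each. The Arnt window (chr3:95434140-95434389) held 1 copy and the Nqo1 window (chr8:107403206-107403455) held 0. Of 32851 such windows, 28.2% held at least 1 copy and 2.77% held 3 or more, so a single copy is common, and a match is a description of letters and not a binding site.

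The libraries held 11899 donor cells, 5426 keratinocytes and 781 host cells, with 226 to 8382 cells and 2982296 to 64343817 unique molecular identifiers (UMIs) per donor library. Levels are UMIs per 10000 UMIs of a cell (CP10K), averaged over the cells of a library and cluster, and clusters carry the authors' names: Mono, ISG mono, S100a+ mono and Hmox1+ mono for monocytes, Mrc1+ mac for macrophages, MC for monocyte-derived cells, and resident, cycling and migrating mLC for monocyte-derived LCs. Only library and cluster combinations with at least 20 cells were used for donor levels. The LC markers Cd207, Epcam, Mfge8 and Cldn1 summed to between 64.1 and 89.8 CP10K in resident mLC and to between 0.442 and 1.65 CP10K in Mono. Keratinocyte markers summed to at most 2.52 CP10K in the donor clusters, against 312 to 633 CP10K in the keratinocyte clusters. Of 18074 cell barcodes, 32 were found in 2 or more of the 7 libraries. Free RNA in droplets was not removed here.

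Ahr was highest in resident mLC among the donor clusters. Its level there was 2.82 CP10K in BMT replicate 1, 2.28 in replicate 2, 1.52 in replicate 3 and 2.29 in the BMT + T cells library, a mean of 2.23 ± 0.534 (SD, n = 4). Mono held 0.291, 0.484, 0.470 and 0.819 CP10K in the same order, a mean of 0.516 ± 0.220 (SD, n = 4). Every resident mLC value stood above every Mono value. Mrc1+ mac held 0.425, 0.533, 0.212 and 0.851 CP10K, and MC, which had too few cells in BMT replicate 3, held 0.529, 0.544 and 0.352 CP10K. These 3 clusters overlapped each other and none of them reached the resident mLC. ISG mono followed with 0.334 ± 0.167 (SD, n = 3) and Hmox1+ mono was lowest with 0.255 ± 0.0947 (SD, n = 3), while S100a+ mono had 1 library, at 0.468 CP10K. The other mLC clusters stood between, at 1.02 ± 0.0301 (SD, n = 2) in migrating mLC and 1.66 ± 1.25 (SD, n = 3) in cycling mLC, where the libraries lay far apart at 0.610 and 1.34 CP10K in BMT replicates 1 and 2 and 3.04 in the BMT + T cells library. With the UMIs of all cells pooled, these cycling mLC held 0.697, 1.22 and 0.873 CP10K, so the spread and the place of the BMT + T cells library rested on averaging over cells. From Mono down to Hmox1+ mono, neighbours in this order differed by less than their SD.

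**Figure D1:**
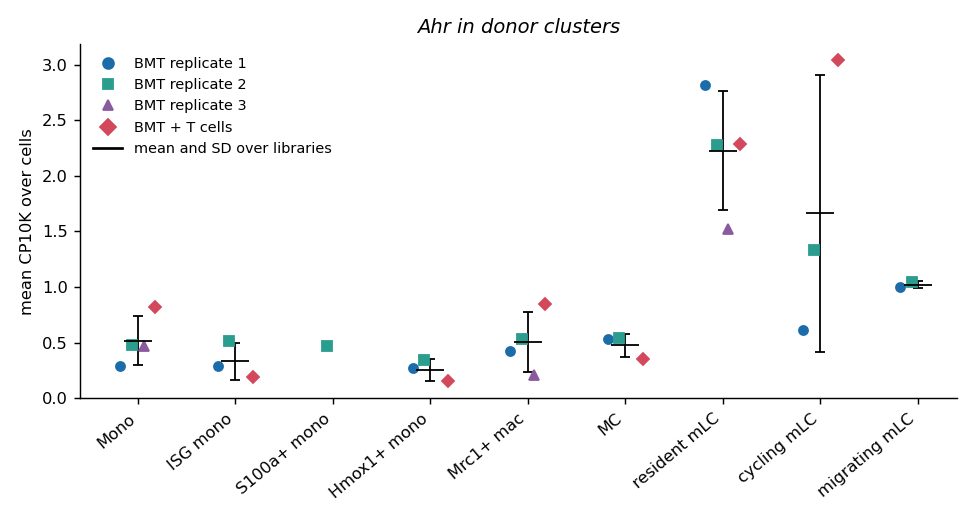
Mean Ahr level in CP10K (vertical axis) in each annotated donor cluster (horizontal axis), with 1 point per library of at least 20 cells and bars for the mean and SD over libraries. The resident mLC points lie between 1.52 and 2.82, above every Mono, MC and Mrc1+ mac point, while the cycling mLC points spread from 0.610 to 3.04.

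Of the members, Ahr, Arnt and Tiparp, reached the mean of 0.1 CP10K that a test required, and Ahrr and Nqo1 did not. Ahr rose in resident mLC against Mono by 1.95 on the scale log2(CP10K + 0.1) (SE 0.330, limma adjusted p = 5.05e-05), with all 4 libraries higher, by 1.38 to 2.90. Against Mrc1+ mac it rose by 2.02 (SE 0.330, limma adjusted p = 3.48e-05, 4 of 4 libraries), and against MC by 2.16 (SE 0.365, limma adjusted p = 0.000133, 3 of 3 libraries). In the same comparisons 32.7%, 31.5% and 15.7% of 7267 genes tested passed at an adjusted p under 0.05 (higher in 18.4%, 17.9% and 8.52%, lower in 14.3%, 13.6% and 7.17%). The 3 comparisons share the resident mLC values, so they are not separate pieces of evidence, and since the clusters were drawn from the same cells the calls describe the annotation. Averaging over cells gives weight to shallow cells, and with the UMIs of all cells pooled the log2 differences were 1.70, 1.66 and 1.66. At the fold used by the study, a log2 difference above 2, Ahr stood just below in the comparison with Mono and just above in the other 2, and 4.06%, 3.51% and 2.09% of genes passed with that fold. The study applied this fold to estimates from Seurat and not to means per library. The 0.1 added to each level here draws log2 differences towards 0, so the side of the threshold depends on that choice.

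In the other 4 comparisons of donor clusters no difference of Ahr passed. MC against Mono differed by -0.20 on the log2 scale (95% interval -0.96 to 0.55, limma adjusted p = 0.844), with 2 of 3 libraries higher and the BMT + T cells library lower, in a comparison where 7.14% of genes passed. Hmox1+ mono against Mono differed by -0.92 (interval -1.67 to -0.17, limma adjusted p = 0.0904), lower in 3 of 3 libraries, where 15.5% of genes passed (4.91% higher). Migrating mLC against resident mLC differed by -1.12 (interval -1.98 to -0.25, limma adjusted p = 0.0610), lower in 2 of 2 libraries, where 20.1% of genes passed. This last difference passed in 8 of 16 alternative settings, among them without the BMT + T cells library (-1.15, limma adjusted p = 0.0131). Cycling mLC against resident mLC differed by -0.78 (interval -1.53 to -0.03, limma adjusted p = 0.191), where 10.7% of genes passed. Without the BMT + T cells library, whose 34 cycling cells held the highest mean over cells but not the highest pooled level, that difference was -1.30 (limma adjusted p = 0.0135), and with pooled UMIs of all libraries it was -0.76 (0.0104).

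**Figure D2:**
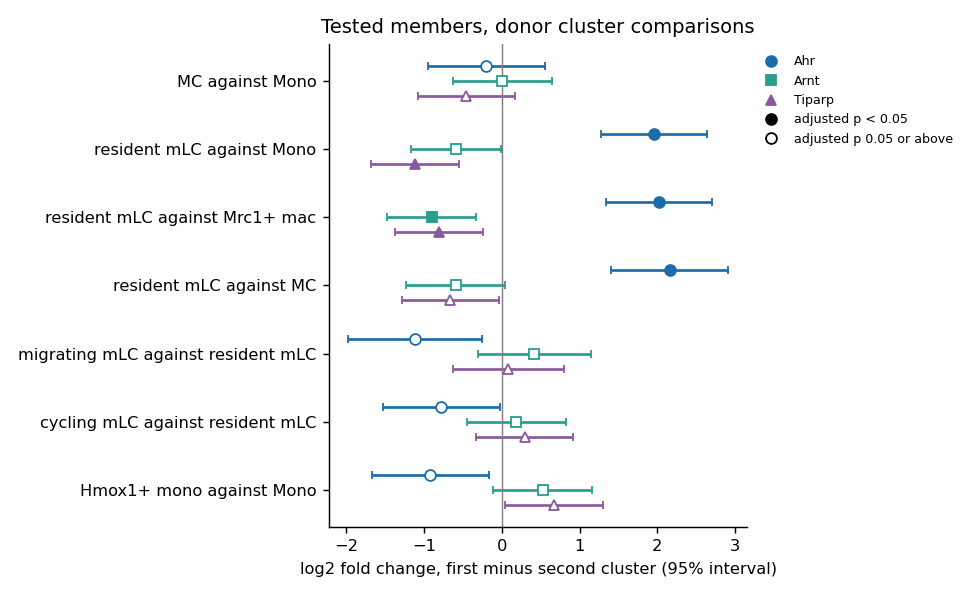
Log2 fold changes (horizontal axis, scale log2(CP10K + 0.1)) of Ahr, Arnt and Tiparp in 7 comparisons of donor clusters (vertical axis), each with its 95% interval, and filled where the adjusted p was under 0.05. Ahr lies near 2 in the 3 comparisons of resident mLC with Mono, Mrc1+ mac and MC, where Arnt and Tiparp lie below 0.

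Detection of Ahr was also highest in resident mLC. Donor cells with at least 2000 UMIs were thinned to 2000, and shallower cells were left out. These were 182, 770 and 38 cells of BMT replicates 1 to 3 and 87 of the BMT + T cells library. An Ahr UMI was then found in 29.1% of resident mLC cells of BMT replicate 1 (Clopper-Pearson 95% interval 19.8 to 39.9), 33.8% of replicate 2 (31.0 to 36.7), 14.9% of replicate 3 (6.20 to 28.3) and 27.6% of the BMT + T cells library (22.4 to 33.3). In Mono the shares were 5.83%, 9.68%, 7.59% and 7.02%, and in MC they were 8.24%, 9.45% and 7.41% of the 3 libraries. The interval of resident mLC in BMT replicate 3, from 47 cells, reached down into that of Mono in the same library (2.84 to 15.8). Cycling and migrating mLC had mean shares of 20.9% and 16.5%, and Hmox1+ mono had 3.16%. Without thinning the mean share was 72.3% in resident mLC and 14.5% in Hmox1+ mono, since most cells hold several times more UMIs. No cluster is known to lack Ahr, so the share that free RNA gives was not measured. These intervals cover counting error only.

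Ahrr, the repressor, was sparse, with 379 UMIs in 11899 donor cells, of which 173 lay in resident mLC. Its level in resident mLC was 0.114, 0.159 and 0.0169 CP10K in BMT replicates 1 to 3 and 0.166 in the BMT + T cells library. In Mono it was 0.00915, 0.0116, 0.0606 and 0.0156 CP10K in the same order. Resident mLC was higher in 3 of 4 libraries, and BMT replicate 3, which went the other way, rested on 1 UMI against 4. Fitted without the filter on low genes, the log2 difference was 0.73 against Mono (limma adjusted p = 0.0852), 0.83 against Mrc1+ mac (0.0519) and 0.88 against MC (0.103), none of which passed. Cycling mLC had a like mean, 0.122 ± 0.137 (SD, n = 3), which rested on 34 UMIs, and all other donor clusters had means of 0.0297 CP10K or less.

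Set against Ahr in the same cells, the donor clusters had overlapping intervals for Ahrr, apart from resident mLC against MC and migrating mLC. The gap with migrating mLC, whose interval in BMT replicate 2 was 2.60 to 6.03, was seen only with libraries pooled. The gap with MC rested on BMT replicate 2. That library gave 134 of the 173 Ahrr UMIs of resident mLC and 7.19 per 100 there (5.99 to 8.57) against 4.0 (2.72 to 5.69) in its MC. In the other libraries resident mLC held 5.38, 1.08 and 4.85 per 100 and MC 2.78, 0 and 4.55, with overlapping intervals. Over all libraries resident mLC held 6.36 Ahrr UMIs per 100 Ahr UMIs (binomial 95% interval 5.42 to 7.42), Mono 3.91 (2.00 to 6.93), MC 3.71 (2.64 to 5.09), Mrc1+ mac 4.22 (3.01 to 5.77) and ISG mono 5.82 (4.14 to 7.97). Hmox1+ mono stood at 10.9 (3.37 to 27.2), which rested on 5 Ahrr UMIs. By library, all donor cells held 4.21, 5.58 and 2.76 per 100 in BMT replicates 1 to 3 and 4.66 in the BMT + T cells library. The host library as a whole held 18.4 per 100 (15.7 to 21.6), with 16.6 per 100 (12.8 to 21.3) in its cluster 1 21.6 (16 to 28.8) in its cluster 3 and 42.4 (26.2 to 66.9) in its cluster 4. Host cluster 2 held 12.4 (7.16 to 20.3), an interval that overlapped that of donor resident mLC, cluster 6 held 27.3 (11.5 to 58.3), cluster 5 held 5.36 (1.07 to 16.5) and cluster 7 held 0 beside 17 Ahr UMIs. Keratinocytes held 2 Ahrr UMIs beside 2733 Ahr UMIs, or 0.0732 per 100 (0.00886 to 0.265). The ratio compares transcripts within the same cells, so depth and the table's scaling do not enter it, but the host cells were 1 library and the difference was not tested over replicates. Of 781 host cells 208 had over 20% mitochondrial UMIs and 133 had under 500 genes, against 181 and 72 of 11899 donor cells. The part of cell quality in the ratio was not tested. The host total also includes cluster 6, with T-cell markers, and cluster 5, with keratinocyte markers.

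**Figure D3:**
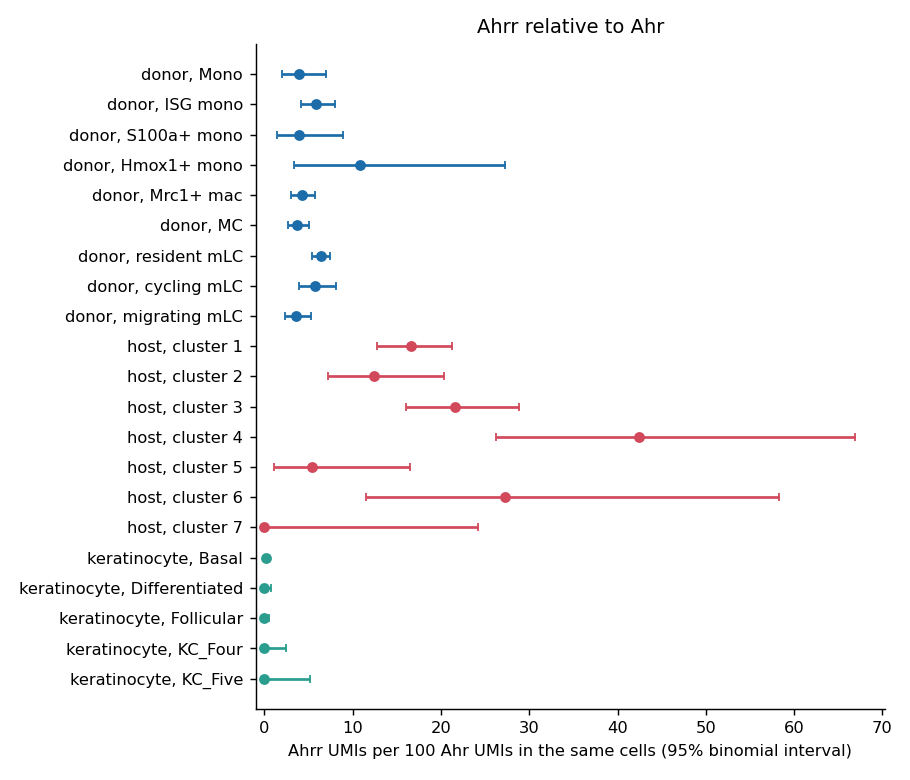
Ahrr UMIs per 100 Ahr UMIs counted in the same cells (horizontal axis) for each donor, host and keratinocyte cluster (vertical axis), with binomial 95% intervals and libraries pooled within a table. The donor clusters lie between 3.57 and 6.36 except for Hmox1+ mono at 10.9, host clusters 1 and 3 lie at 16.6 and 21.6, and the keratinocyte clusters lie at or near 0.

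Arnt, the partner of the receptor, did not follow Ahr. Its mean was lowest in resident mLC (0.219 CP10K) and ISG mono (0.220), with resident mLC at 0.233, 0.275, 0.101 and 0.267 CP10K in BMT replicates 1 to 3 and the BMT + T cells library. Mrc1+ mac held 0.281, 0.494, 0.557 and 0.660 CP10K in that order, and each was above the resident mLC of its library. Arnt fell by 0.90 on the log2 scale in resident mLC against Mrc1+ mac (SE 0.279, limma adjusted p = 0.0151), a call that was lost without BMT replicate 2 (limma adjusted p = 0.0708) or without replicate 3 (0.124), and with pooled UMIs (0.0548). Against Mono the difference was -0.59 (limma adjusted p = 0.110) and against MC it was -0.60 (0.206). The highest donor means were 0.589 ± 0.127 in Hmox1+ mono (SD, n = 3) and 0.498 ± 0.160 in Mrc1+ mac (SD, n = 4), which overlapped.

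Tiparp, the ADP-ribosylating target, was lowest in the donor cluster where Ahr was highest. Resident mLC held the lowest mean, 0.261 ± 0.115 CP10K (SD, n = 4), with 0.379, 0.229 and 0.116 in BMT replicates 1 to 3 and 0.321 in the BMT + T cells library. Migrating mLC, where Ahr was lower, stood close to it at 0.276 ± 0.0313 CP10K (SD, n = 2). Their log2 difference, migrating against resident mLC, was 0.08 (limma adjusted p = 0.892). Mono held 0.500, 0.702, 0.626 and 0.813 CP10K in that order, all above every resident mLC value. Tiparp fell by 1.12 on the log2 scale in resident mLC against Mono (SE 0.274, limma adjusted p = 0.00260, 4 of 4 libraries). Against Mrc1+ mac it fell by 0.81 (SE 0.274, limma adjusted p = 0.0263), lower in 3 of 4 libraries, and its adjusted p was above 0.05 in 8 of 16 alternatives, among them without BMT replicate 1 (limma adjusted p = 0.0609), replicate 2 (0.210) or replicate 3 (0.144). Against MC the difference was -0.66 (limma adjusted p = 0.146), which became -0.75 with a limma adjusted p of 0.00203 when UMIs were pooled. S100a+ mono held the highest level, 1.65 CP10K in the library that had enough cells, followed by Hmox1+ mono with 0.802, 1.51 and 1.33 CP10K in the 3 libraries with enough cells. Hmox1+ mono exceeded Mono in 3 of 3 libraries, by 0.67 on the log2 scale (limma adjusted p = 0.140, and 0.00229 with pooled UMIs).

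Nqo1, the quinone reductase, was near the limit of detection in donor cells, with 123 UMIs in 11899 cells. Resident mLC held 2 Nqo1 UMIs in 1651 cells, while Mrc1+ mac held 38 in 3123 cells and MC 25 in 2034 cells. The mean of 0.467 CP10K in Mrc1+ mac of BMT replicate 3 rested on 3 UMIs in shallow cells and was 0.116 CP10K with pooled UMIs. The other cluster means were 0.0305 CP10K or less, and no comparison of Nqo1 passed without the filter on low genes (lowest limma adjusted p = 0.127, in resident mLC against Mrc1+ mac).

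**Figure D4:**
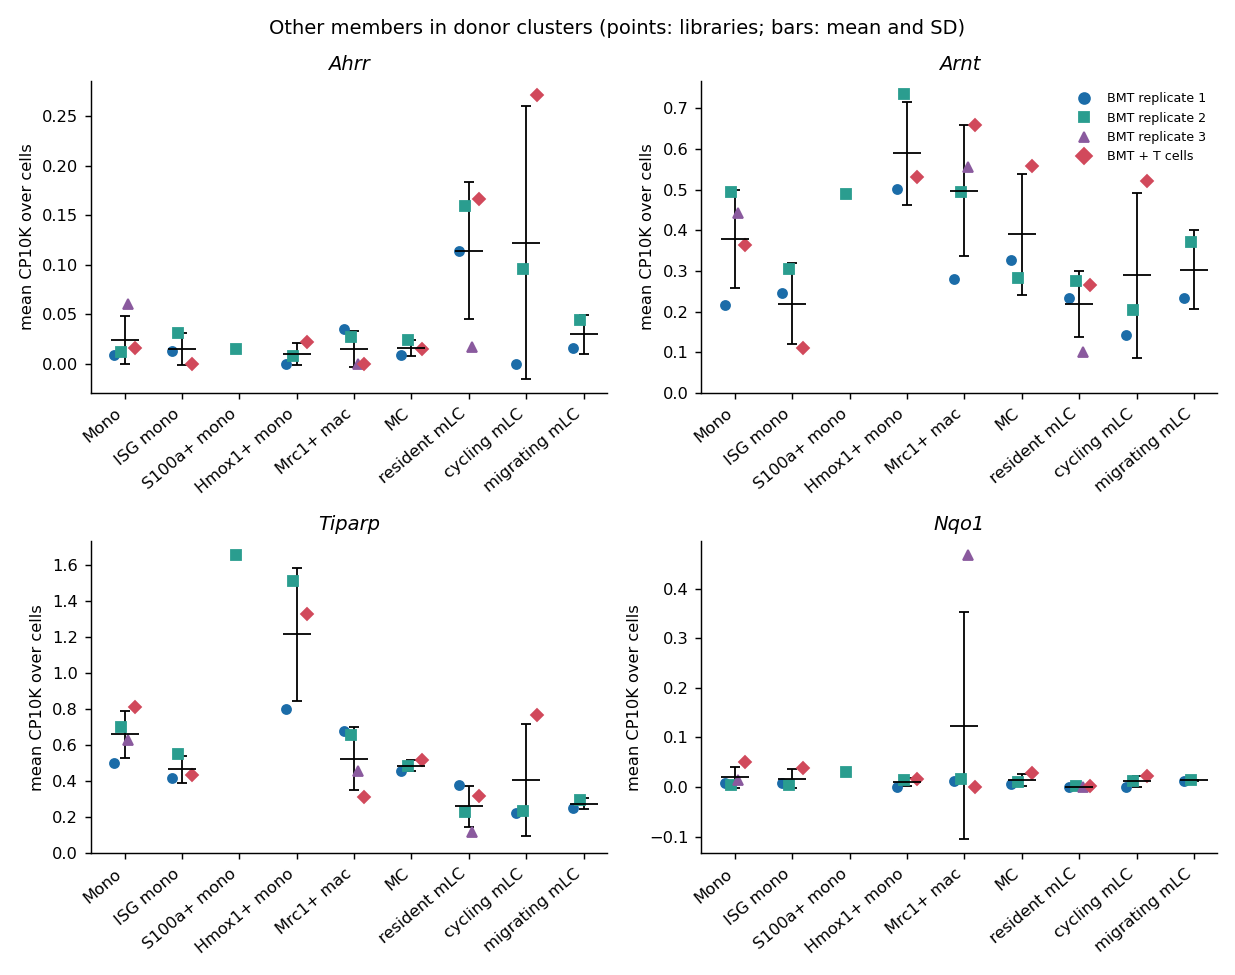
Mean levels in CP10K (vertical axes) of Ahrr, Arnt, Tiparp and Nqo1 in each annotated donor cluster (horizontal axes), with 1 point per library of at least 20 cells and bars for the mean and SD. Ahrr is highest in resident and cycling mLC, Tiparp is highest in S100a+ mono and Hmox1+ mono and lowest in resident mLC with migrating mLC close to it, and the Nqo1 point at 0.467 rests on 3 UMIs.

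The other genes of the pathway were read as lists. Of 4 genes of the cytosolic receptor complex, which hold the receptor before it binds a ligand, 0 passed in resident mLC against Mono, where 32.7% of all genes passed. Their median log2 difference there was -0.03, against 0.14 over all genes. Against Mrc1+ mac 0 passed, where 31.5% of all genes did, and 4 genes are too few to read a 0 as a result. Of 9 other classical targets 2 were tested, and both fell against Mono, where 14.3% of all genes were lower. Xdh, encoding xanthine dehydrogenase, fell by 2.65 (limma adjusted p = 4.50e-06) and Nfe2l2, encoding the oxidative stress factor NRF2, by 1.97 (limma adjusted p = 5.79e-10). Against Mrc1+ mac 2 of 2 fell, where 13.6% of all genes were lower, and against MC 1 of 2 fell, where 7.17% were lower. Of the ligand pathway of tryptophan, 4 genes were tested and 3 rose against Mono, where 18.4% of all genes were higher: Kmo by 1.58, Haao by 1.55 and Kynu by 1.44, which encode enzymes of kynurenine breakdown, while Slc3a2, encoding an amino acid transporter chain, differed by -0.01. The same 3 rose against Mrc1+ mac, by 1.44, 1.19 and 1.95, where 17.9% of all genes were higher. Kynu and Haao also rose against MC, by 1.23 and 0.98, where 8.52% were higher.

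Of 7 tested genes that share regulation with Nqo1 through NRF2, 5 fell in resident mLC against Mono (median -0.90), where 14.3% of all genes were lower. Against Mrc1+ mac 5 fell (median -1.14, with 13.6% of all genes lower) and against MC 4 fell (median -1.13, with 7.17% lower), and 0 rose in these comparisons. Hmox1, encoding heme oxygenase, fell by 2.82 against Mono and Gsr, encoding glutathione reductase, by 1.17. Of 8 immediate early genes, which can rise during tissue handling, 6 fell in resident mLC against Mono (median -1.38, with 14.3% of all genes lower) and 5 fell against Mrc1+ mac (median -1.0, with 13.6% lower). Dusp1 fell by 2.22 and by 2.59. Against MC, 2 fell and 2 rose, Egr1 by 1.53 and Fosb by 1.40. In Hmox1+ mono against Mono, 0 of 8 immediate early genes passed, against 15.5% of all genes, and 8 genes are too few to read a 0 as a result. Of the 7 NRF2 genes 3 rose there, against 4.91% of all genes. That list includes Hmox1, the gene that names the cluster, so this count was partly set by the annotation and is not independent support. The part of handling in the level of Tiparp was not tested. Of the other factors of the receptor's protein family 3 were tested, and Clock and Ncoa2 rose against Mono by 0.59 and 0.61, where 18.4% of all genes were higher. Of the same 3 genes, 0 passed against Mrc1+ mac and 0 passed against MC.

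The order of Ahr over the 27 combinations of library and cluster was most like that of Zeb1, a zinc finger repressor (Pearson r = 0.916 on the log2 scale), followed by Rtn1, Tmem64, Plekha5 and Sept3 (r = 0.900 to 0.909). Arnt was most like Abca1, Arg1 and Appbp2 (r = 0.745 to 0.761), and Tiparp was most like Gsr, Syk and Iqsec1 (r = 0.815 to 0.852). Among the members, Ahr and Tiparp had r = -0.48, Ahr and Arnt r = -0.23, and Arnt and Tiparp r = 0.67. The 27 points come from 4 libraries and share depth and cluster, so these values are descriptions.

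Along the latent time that the authors derived from RNA velocity, cut into 5 bins of equal width, Ahr rose in level from 0.283 ± 0.109 CP10K in the earliest bin through 0.451 ± 0.118 and 1.06 ± 0.286 to 2.04 ± 0.916 in the bin before the last (SD, n = 4 libraries each). Each of the 4 libraries was higher in every bin than in the bin before over this range. Ahrr went from 0.0149 to 0.109 CP10K over the same bins, whereas Tiparp stayed between 0.437 and 0.711 CP10K on average. In the last bin, of 139 cells in 3 libraries, Ahr was 4.75 CP10K in BMT replicate 1, 5.21 in the BMT + T cells library and 0.334 in BMT replicate 2. That bin was 60.4% S100a+ mono and 38.2% resident mLC over all libraries, and the bin before it was 56.0% resident mLC. Latent time was computed from the same cells, so this is a description.

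Whether Ahr and another member were found in the same cell was described as an odds ratio within clusters after thinning to 2000 UMIs. For Ahrr the log2 odds ratios were 1.21, 0.40 and 0.39 in the 3 libraries that gave a value, but 24 of the 26 cells with both lay in BMT replicate 2. Without thinning the Ahrr values ran from -0.17 in BMT replicate 1 to 2.60 in replicate 3, so no direction is read for Ahrr. For Arnt they were 0.45, 0.14 and 1.08, and between 0.22 and 0.60 in the 4 libraries without thinning. For Tiparp they were 0.38, 0.00 and -0.71, and without thinning they were between 0.22 and 0.73 in the 4 libraries, so none is read for Tiparp.

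Between labels, the BMT + T cells library was compared with the 3 BMT libraries over the 3 clusters that had enough cells in all 4 (Mono, Mrc1+ mac and resident mLC). Of 7345 genes tested 0 passed in limma (0.00%), and 352 (4.79%) had an unadjusted p under 0.05. Ahr was 0.66 higher on the log2 scale in the BMT + T cells library (95% interval -0.01 to 1.32, limma adjusted p = 0.949), above each of the BMT libraries. That place rests on means over cells, which give weight to shallow cells. By these means the BMT + T cells library was highest in Mono (0.819 CP10K) and Mrc1+ mac (0.851). In resident mLC it lay below BMT replicate 1 (2.82). Arnt differed by 0.28 (interval -0.42 to 0.98) and Tiparp by 0.00 (interval -0.66 to 0.66). The library names (DM and a number for BMT replicates 1 and 2, DMBMT and DMBMTT for replicate 3 and the BMT + T cells library) may mark separate experiments, which was not tested. Against BMT replicate 3 alone the differences were 0.95 for Ahr, 0.29 for Arnt and 0.29 for Tiparp, 1 library against 1 with no test. With 1 library on one side, which was assumed to vary like the others, differences of this size could not be told from the spread, and without BMT replicate 3 the fit called 529 genes, none of them Ahr (limma adjusted p = 0.297), Arnt or Tiparp.

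In the keratinocytes Ahr was highest in the Follicular cluster. It held 1.35 CP10K in the BMT library (Poisson 95% interval 1.21 to 1.5) and 1.40 in the BMT + T cells library (1.24 to 1.56). Differentiated cells held 0.580 and 0.611 CP10K, Basal cells 0.548 and 0.510, KC_Four 0.311 and 0.209, and KC_Five 0.284 and 0.264. The order was the same under both labels except that KC_Four and KC_Five, whose intervals overlapped, changed places, and the intervals of Differentiated and Basal cells overlapped too. The Follicular cluster also held fibroblast markers at 6.20 and 4.81 CP10K and melanocyte markers at 1.17 and 2.82 CP10K in the BMT and BMT + T cells libraries, and its cells without any such UMI had 1.45 and 1.54 CP10K of Ahr. There was 1 library per label, so nothing was tested between labels.

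Among the targets Nqo1 was also highest in Follicular cells, where it held 0.221 and 0.259 CP10K in Follicular cells against 0.0624 and 0.0775 in Basal cells. Tiparp was highest in KC_Five (0.431) and Basal cells (0.401) of the BMT library and in Basal cells (0.461) of the BMT + T cells library, and Follicular cells held 0.191 and 0.270. Arnt ranged from 0.129 to 0.251 CP10K over the 10 combinations of cluster and library. Cyp1b1 was found as 4 UMIs in 4 of 5426 cells, all Follicular, 2 in each library. These 4 cells held 74 to 697 UMIs of keratinocyte markers and 0 of the fibroblast markers. In CP10K their keratinocyte markers were 148 and 177 in the BMT library and 397 and 146 in the BMT + T cells library. All but the highest of these lay below the range of the keratinocyte clusters given above. Melanocyte markers were not counted in these cells. The 1684 and 1712 Basal cells held 0 Cyp1b1 UMIs, which allows levels of up to 0.00249 and 0.00243 CP10K (upper Poisson 95% limits). Ahrr was found as 1 UMI in each library, both in Basal cells.

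In the host library Ahr was highest in cluster 1, with 3.44 CP10K (Poisson 95% interval 3.12 to 3.78), and cluster 3, with 2.95 (2.60 to 3.32). Cluster 6, whose T-cell markers summed to 143 CP10K, held 1.94 (1.33 to 2.72). Cluster 2, where Cd207 was highest at 14.0 CP10K, held 1.17 (0.989 to 1.38), and cluster 4, where migration markers summed to 37.3 CP10K, held 1.07 (0.827 to 1.36). Cluster 5, with keratinocyte markers at 395 CP10K, held 0.329 (0.248 to 0.427). Cluster 2 was shallow, at a median of 1763.5 UMIs per cell, and held keratinocyte markers at 46.5 CP10K. Its level was 1.84 CP10K with pooled UMIs, while clusters 1 and 3 had median mitochondrial shares of 15.6% and 17.0%. Their part in these levels was not tested, and the level of cluster 1 in cells within the stated filters was 4.35 CP10K.

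Ahrr, with 189 UMIs in 781 host cells, was 0.543 CP10K in cluster 1, 0.673 in cluster 3 and 0.527 in cluster 6, whose intervals overlapped. It was 0.361 CP10K in cluster 4 and 0.145 in cluster 2, whose intervals for Ahr overlapped on means over cells. With pooled UMIs the Ahr level of cluster 2 was higher, as given above, so that overlap depended on averaging over its shallow cells. An Ahrr UMI was found in 125 host cells and in 2 of 5426 keratinocytes. Arnt was 0.662 and 0.693 CP10K in clusters 1 and 3, 0.165 in cluster 2 and 0.960 in cluster 7, where it rested on 15 UMIs. Tiparp was highest in cluster 6 (0.614) and cluster 5 (0.541) and stood at 0.303 and 0.297 in clusters 1 and 3. Nqo1 was found as 16 UMIs, of which 15 lay in cluster 5, and clusters 1, 2 and 3 together held 0. The donor and host tables list different genes and come from different libraries, so levels are given side by side without a test.

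**Figure D5:**
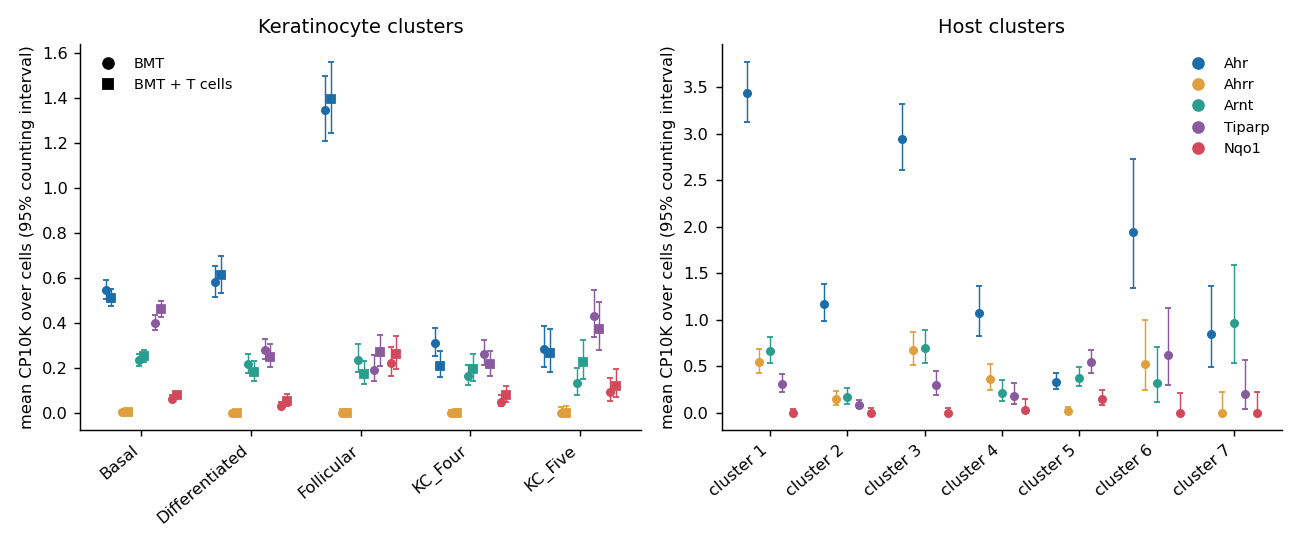
Mean levels in CP10K (vertical axes) of Ahr, Ahrr, Arnt, Tiparp and Nqo1 in the keratinocyte clusters of 2 libraries (left) and the clusters of the host library (right), with 95% counting intervals. Ahr is highest in Follicular cells at 1.35 and 1.40 and in host clusters 1 and 3 at 3.44 and 2.95, and Ahrr is seen in the host panel and is near 0 in the keratinocyte panel.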

How the data were processed

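Droplet libraries (10x Genomics, 5′ kit) of 7 samples were used. The deposited values are natural logs of 1 plus the UMIs per 10000 of a cell. The submitters' processing notes name kallisto, bustools, Seurat and GRCm38, with versions not given in the sources used here. The mitochondrial column was deposited in percent and latent time as a fraction. Likely doublets had been removed by the authors, and none was looked for again. With the log undone, 100% of values were whole UMIs (tolerance 0.001), which gave the depth of each cell. Genes listed in the donor table held 91.3% of the UMIs of the median cell.

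Donor CP10K was averaged per library and cluster (minimum 20 cells). Genes averaging 0.1 or more were tested on log2(CP10K + 0.1) in limma 3.58.1 (R 4.3.3, trend and robust, statmod 1.5.0), with library as a block since the clusters of a library are paired. Profiles of 1 library deviated together, with mean correlations of 0.125 to 0.418 inside a library and -0.184 to -0.0807 between libraries. Deviations were taken from the mean of each cluster over libraries, which by itself pushes the values between libraries below 0. A gene passed at a Benjamini-Hochberg adjusted p under 0.05 over all genes tested. For shares, donor cells with at least 2000 UMIs were thinned to 2000, and shallower cells were left out. Intervals of shares and of UMI ratios are exact at 95%. For keratinocyte and host levels, the mean over cells was scaled by the Poisson 95% limits of its UMI sum, which is approximate where depth differs between cells. The level from pooled UMIs can therefore lie outside such an interval. These intervals cover counting error only, and the intervals of log2 differences come from the limma fit. The limma fit was tested on simulated data. Members and lists were chosen with earlier results of these data known. The genes named are the members, up to 4 per list by size of change (a few others of a list were chosen after their values were seen), the 5 most like Ahr and the 3 most like Arnt and Tiparp. Alternatives changed 1 choice at a time (pseudocount, filters, cell minimum, pooling, voom, block, libraries left out). Other software was Python 3.11.15 with SciPy 1.17.1, NumPy 2.4.6, matplotlib 3.10.9 and pandas 2.3.3.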

Additional observations from a re-analysis of the deposited data

Results flagged for a closer look

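In 7 comparisons of clusters, averaged over cells, the BMT + T cells library moved one way and every BMT library the other, and none of these differences was tested. In 4 of them this split was lost when UMIs were pooled over cells. For Ahr in cycling mLC against resident mLC, the log2 difference was 0.40 in the BMT + T cells library and -2.04 to -0.73 in 2 BMT libraries, but -0.70 against -1.29 to -0.70 with pooled UMIs. For Tiparp in resident mLC against Mrc1+ mac it was 0.030 against -1.37 to -0.70 in 3 BMT libraries, but -0.54 against -1.12 to -0.57 with pooled UMIs. For Ahrr in cycling mLC against resident mLC it was 0.48 against -1.10 to -0.41 in 2 BMT libraries, but -0.26 against -0.99 to -0.44 with pooled UMIs.

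The direction stayed opposite with pooled UMIs for Ahr in MC against Mono, at -1.02 against 0.14 to 0.69 in 2 BMT libraries and -0.16 against 0.076 to 0.34 pooled, and for Arnt in cycling mLC against resident mLC, at 0.76 against -0.45 to -0.31 and 0.39 against -0.38 to -0.27 pooled. The MC and cycling mLC of the BMT + T cells library held 30 and 34 cells. The other cases rested on few UMIs. Nqo1 in resident mLC against Mrc1+ mac was 0.036 against -2.50 to -0.17, resting on 1 UMI against 0 in the former, and Ahrr in Hmox1+ mono against Mono was 0.074 against -0.13 to -0.047, resting on 4 UMIs against 2, and with pooled UMIs it was 0.088 against -0.053 to 0.040.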

How the results depend on the processing

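The 3 differences of Ahr between resident mLC and Mono, Mrc1+ mac or MC had an adjusted p under 0.05 in 16 of 16 alternatives (at most 0.0044, 0.00271 and 0.00948), as did Tiparp between resident mLC and Mono (at most 0.0498). With the study's fold threshold added on the scale used here, Ahr (1.95) and Tiparp (-1.12) against Mono and Arnt (-0.90) and Tiparp (-0.81) against Mrc1+ mac were no longer called. Tiparp against Mrc1+ mac was also lost with a pseudocount of 1 (-0.27), without the filter on low genes, from at least 10 cells or in a fit of the 2 clusters alone (-0.81 each) and within the stated cell filters (-0.61), and Arnt was lost in the fit of 2 clusters (-0.90) and with pooled UMIs (-0.46). Leaving out a library gave -1.09 to -0.62 for Tiparp and -1.14 to -0.64 for Arnt.

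Other differences were called only under some settings. Ahr in migrating against resident mLC was called with a pseudocount of 1 (-0.68), at least 50 cells (-1.09), means of ln values (-0.61), 2 clusters alone (-1.23), voom (-1.11), pooled UMIs (-0.95) and the stated filters (-1.03), and was -1.15 to -1.07 with a library left out. Ahr in cycling against resident mLC was called with ln values (-0.38), voom (-0.82) and pooled UMIs (-0.76), with -1.30 to -0.23 when a library was left out. The same 3 settings called Arnt in resident mLC against Mono (-0.11, -0.64 and -0.47) and Tiparp in resident mLC against MC (-0.19, -1.02 and -0.75). Tiparp in Hmox1+ mono against Mono was called with a pseudocount of 1 (0.38), at least 50 cells (0.90), ln values (0.25), voom (1.05) and pooled UMIs (0.76), Arnt with voom (0.84) and pooled UMIs (0.59), and Ahr with pooled UMIs (-0.56). The cause was not tested.

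Differences near 0 changed sign. Arnt in MC against Mono was -0.0099 with a pseudocount of 0.01, -0.28 with at least 50 cells, -0.043 with ln values, -0.52 with voom, -0.41 with pooled UMIs, -0.048 within the stated filters and -0.21 to 0.30 with a library left out. Ahr there was 0.043 with at least 50 cells, 0.0043 with ln values, 0.064 with voom, 0.036 with pooled UMIs, 0.035 within the filters and -0.57 to 0.18 with a library left out. Tiparp in migrating against resident mLC was -0.049 with at least 50 cells, -0.12 with at least 10, -0.081 with 2 clusters alone and -0.050 to 0.29 with a library left out. In cycling against resident mLC, Arnt was -0.31 with at least 50 cells, -0.24 with voom and -0.11 to 0.42 with a library left out, and Tiparp was -0.25 with at least 50 cells, -0.0097 with pooled UMIs and -0.12 to 0.68. Between labels Arnt was -0.16 with all cells pooled, and Tiparp was -0.0043 with a pseudocount of 1 and -0.14 to 0.086 with a library left out.

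Without the replicate block, which paired the clusters of a library, no call of a member changed. Ahr in resident mLC against Mono was 1.95, a value the block could not move because both clusters were present in every donor library. Shares of cells with an Ahr UMI were 14.5% in Hmox1+ mono, 25.4% in ISG mono, 34.9% in MC, 24.6% in Mono, 22.5% in Mrc1+ mac, 58.7% in cycling, 41.7% in migrating and 72.3% in resident mLC without thinning, and at 1000 UMIs 2.29% in ISG mono, 3.46% in MC, 3.53% in Mono, 2.16% in Mrc1+ mac, 12.9% in cycling and 11.8% in migrating mLC. The mean log2 odds ratio was 1.36 for Ahrr without regard to cluster, and for Tiparp 0.54 without thinning and 0.63 for cells with 2 or more UMIs. Pooled UMIs gave Ahr levels of 0.470 and 0.445 CP10K in Basal keratinocytes and 3.88, 1.84 and 3.39 in host clusters 1 to 3. Host clusters 1 and 2 had 4.35 and 1.68 within the stated filters, and 3.98 and 1.84 in cells of at least 1500 UMIs. Ahrr, Nqo1 and Cyp1b1 were limited by their few UMIs.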
